A study of Mus musculus with 2 samples.

Results

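Complex I (NADH:ubiquinone oxidoreductase) is the entry point of electrons from NADH into the mitochondrial respiratory chain. Its matrix arm carries the flavin and the iron-sulfur clusters that pass electrons from NADH to ubiquinone, and its membrane arm pumps protons. A small core is conserved from bacteria. Accessory subunits surround that core and hold the enzyme together. In mammals most subunits are encoded in the nucleus and the proton-pumping core of the membrane arm in mitochondrial DNA, so both genomes must supply parts that are used in a fixed ratio, and heart muscle is among the tissues richest in the enzyme. The genes described here are those whose mouse symbol follows the Nduf naming of structural subunits (A, AB, B, C, S or V with a number, assembly factors left out). The rule found 37 genes among the 17646 named in the gene tables.

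RNA came from hearts of BALB/c mouse embryos at embryonic day 13.5, with 1 Srsf10 knockout library (SRSF10-/-) and 1 wild-type (WT) library. Srsf10 belongs to the SR proteins, which regulate pre-mRNA splicing, and the comparison asks how heart transcripts change when it is absent. The knockout library held 38.89 M uniquely mapped reads and the WT library 39.61 M. The labels give neither how the allele was made, nor how many embryos entered a library, nor their sex. Since each genotype has a single library, no replicate spread exists and nothing was tested. Higher and lower describe these libraries, and the 95% intervals are exact conditional binomial (Clopper-Pearson) intervals of the ratio of reads per library read, which cover counting error only. In a whole heart, fewer cells of a type and less RNA per cell cannot be told apart.

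The targeted gene checked the labels: Srsf10 had 212 reads (1.45 RPKM) in the knockout library and 5245 reads (35.3 RPKM) in the WT library. RPKM is reads per kilobase of the gene length listed in the tables and per 1e6 mapped reads. The tissue label was checked against 12 cardiomyocyte genes, all expressed in both libraries, with summed levels of 18499 RPKM in the knockout and 19967 RPKM in WT, 9 of the 12 lower in the knockout. Macrophage markers summed to 57.9 RPKM in the knockout and 38.1 RPKM in WT (0 of 6 lower), fast skeletal muscle markers to 191 and 140 RPKM (1 of 5 expressed markers lower), erythroid markers to 2835 and 3027 RPKM (2 of 5 lower), endothelial markers to 261 and 272 RPKM (3 of 6 lower), mesenchyme markers to 582 and 835 RPKM (6 of 6 lower) and hepatocyte markers to 3.08 and 5.999 RPKM (2 of 3 lower), the knockout value before the WT value and counts over the expressed markers of each list. The skeletal sum rests on Tnni2 (96.8 RPKM in the knockout and 24.4 RPKM in WT): without it, a split made after seeing the values, the other 6 listed genes summed to 94.5 RPKM in the knockout and 115 RPKM in WT. Most of that remainder was Ckm (75.1 RPKM in the knockout and 102 RPKM in WT). Tnnt3, Mylpf and Actn3 were higher in the knockout, as Tnni2 was, and Myod1 and Myog, which did not reach 1 RPKM, were lower. The hepatocyte gene Alb had 0 reads in the knockout library and 88 in WT. The 4 Y-linked genes Ddx3y, Eif2s3y, Kdm5d and Uty had 7 reads in the knockout library and 2943 in WT, so that genotype and sex cannot be told apart. The part of these differences in the results below was not tested.

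Several members share sequence with other places in the genome, and the tables count uniquely mapped reads, per their headers. In the annotated transcripts of GENCODE M21 (mouse genome build GRCm38), 8 of the 37 members had 20% or more of their 31-base words in common with some other gene. For 4 of them (Ndufs3, Ndufb4, Ndufs5 and Ndufa12) that share lay in genes elsewhere, chiefly processed pseudogenes, which are reinserted copies of a spliced mRNA. For 3 others (Ndufb6, Ndufa13 and Ndufb9) it lay with genes annotated over the same place. Ndufb11 reached 29.0% through both kinds.

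Ndufs3, a core subunit on chromosome 2, had the largest share, 55.0% of its words. Its copy Gm12251 on chromosome 11 matched the whole coding sequence of 789 bases without a gap and differed at 11 bases (98.6% identity). The stretch with most differences, bases 1 to 90 of the coding sequence, is shown to make plain how little separates gene and copy. Capitals mark the differing bases, which are G13A, G27T and C81T, the gene's base first and positions counted from 1 at the A of the start codon.
Ndufs3: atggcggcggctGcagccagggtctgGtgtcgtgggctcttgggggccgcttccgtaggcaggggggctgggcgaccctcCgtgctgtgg
Gm12251: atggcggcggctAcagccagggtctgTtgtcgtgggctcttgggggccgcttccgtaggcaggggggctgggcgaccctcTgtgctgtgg
Ndufs5, an accessory subunit of the intermembrane space side on chromosome 4, has a copy on chromosome 16 (BC002163) that differs at 2 of 318 coding bases. Both differences, T81C and A105G, fall in bases 16 to 105, shown with the same marking.
Ndufs5: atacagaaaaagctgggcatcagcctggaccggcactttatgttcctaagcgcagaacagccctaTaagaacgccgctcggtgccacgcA
BC002163: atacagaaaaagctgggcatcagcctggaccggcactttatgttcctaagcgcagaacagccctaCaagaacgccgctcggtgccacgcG
The copy of Ndufb4, Ndufb4c on chromosome 15, was identical over all 387 coding bases, and that of Ndufa12, Gm15920 on chromosome 5, differed at 2 of 399 aligned coding bases. How the authors' counting treated reads from such stretches is not given in the sources used here, so the levels of these members are uncertain. The deposited coverage, the percent of the listed length under reads, was 76.73% in the knockout and 90.83% in WT for Ndufb4, 91.76% in the knockout and 87.65% in WT for Ndufs5, and 92.43% in the knockout and 87.84% in WT for Ndufa12.

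**Figure D1:**
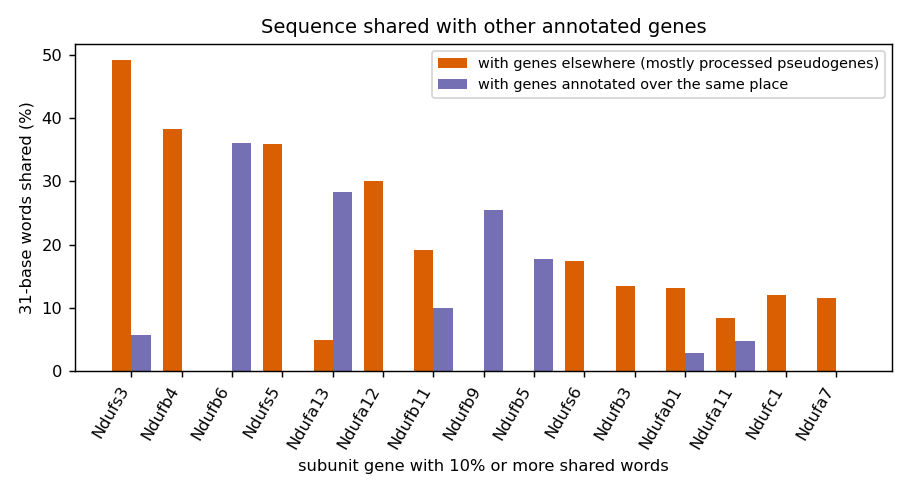
Percent of 31-base words shared with other annotated genes (vertical axis) for the 15 subunit genes at 10% or more, split into genes elsewhere (left bar) and genes annotated over the same place (right bar). Ndufs3, Ndufb4, Ndufs5 and Ndufa12 share mostly with genes elsewhere, while Ndufb6, Ndufa13 and Ndufb9 share mostly with genes at their own place.

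Of 37 members, 37 passed the filter of at least 1 RPKM in at least 1 library. Their levels were high and spread widely. The median member stood at 105 RPKM in the knockout library and 109 RPKM in WT, against 9.80 and 9.88 RPKM over the 12329 expressed genes. Levels ran between 8.29 and 443 RPKM in the knockout and between 8.12 and 519 RPKM in WT, and 19 members exceeded 100 RPKM in both libraries. Members ranked nearly alike in the libraries, with a Spearman correlation of RPKM of 0.974 over 37 genes. The Pearson correlation of log2 RPKM was 0.986. The genes share library and depth and are not replicates.

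On the listed lengths, the most abundant member was Ndufa4, at 443 RPKM in the knockout and 519 RPKM in WT. It carries a complex I name but its protein is now assigned to cytochrome c oxidase, complex IV. Next came Ndufb9 (257 RPKM in the knockout and 244 RPKM in WT), a distal membrane-arm subunit of the LYR family, and Ndufb11 (242 RPKM in the knockout and 245 RPKM in WT), an X-linked distal membrane-arm subunit. The lowest was Ndufb2, a small distal membrane-arm subunit, at 8.29 RPKM in the knockout and 8.12 RPKM in WT.

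**Figure D2:**
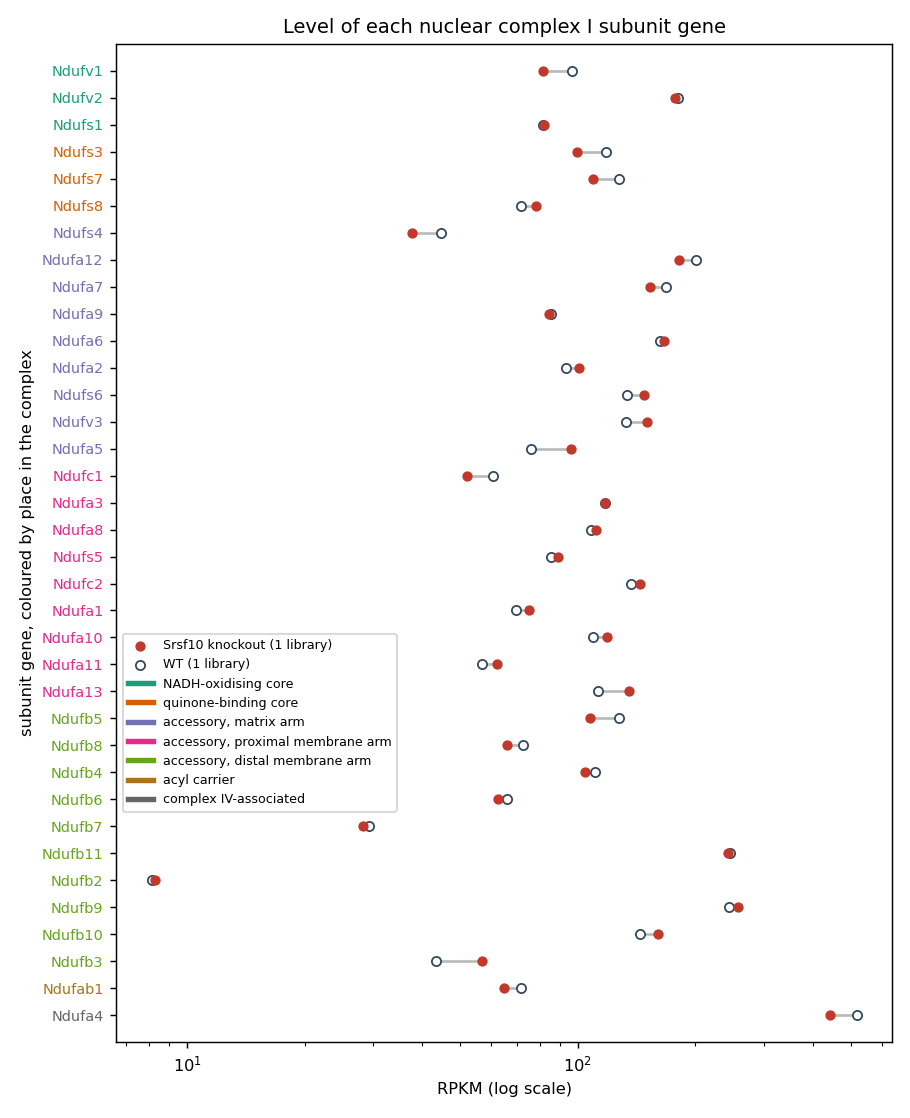
RPKM on a log axis (horizontal) of 36 of the 37 subunit genes (vertical, grouped and coloured by place in the complex) in the Srsf10 knockout library (filled) and the WT library (open). Filled and open points of a gene lie close together compared with the spread between genes, with Ndufa4 highest and Ndufb2 and Ndufb7 lowest.

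RPKM levels depend on the listed gene length. For 7 members the listed length was over 2 times that of the shortest annotated transcript with the full coding sequence. Ndufb2 was listed with 4371 bases against 455 for that transcript, and on the shorter length its level was 79.6 RPKM in the knockout in place of 8.29. Ndufb7, an intermembrane-space subunit of the distal arm, was listed with 4435 bases, the length of a retained-intron transcript, and stood at 28.2 RPKM in the knockout on that length and at 201 RPKM on 623 bases. The same change moved Ndufa11 in the knockout to 303 RPKM, where the listed length gave 62.0, and Ndufc1, Ndufb8, Ndufab1 and Ndufa3 were the other members concerned. Reads covered 98.22% of the listed length of Ndufb2 in the knockout, 91.54% of that of Ndufb7 and 99.85% of that of Ndufa11. Some reads therefore lie outside the shorter transcripts, while the shorter-length levels divide all reads by them. Those levels, and the ranks from them, are upper limits for these genes. The order of levels changed with the length: on the shorter transcripts Ndufa4 was again highest, followed by Ndufa12, Ndufa11 and Ndufa3, with Ndufb11 at rank 5 and Ndufb9 at rank 6. Ndufs4 was then lowest, and Ndufb2 stood at rank 32 of 37. The ratio between the libraries does not change with the length used, since the listed length of 0 members differed between the tables.

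**Figure D3:**
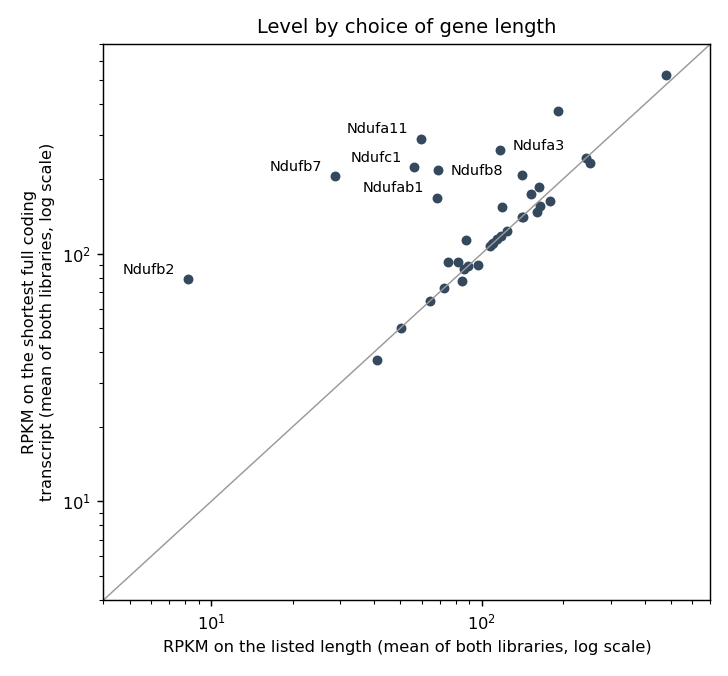
Mean RPKM of both libraries for the 37 subunit genes on the listed gene length (horizontal, log scale) and on the shortest annotated transcript with the full coding sequence (vertical, log scale); the line marks equal values. The 7 named genes lie more than 2 times above the line, Ndufb2 and Ndufb7 farthest.

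As a whole the subunit genes were close to balanced between the libraries. Of the 37, 18 had a log2 ratio of RPKM + 1 (knockout over WT) below 0, beside 51.8% of expressed genes, and the median was 0.00 beside -0.01. Their quartiles of -0.14 and 0.11 lay next to -0.14 and 0.13 over all expressed genes. In summed reads the members took 0.483% of the knockout library and 0.492% of the WT library, 1.02-fold lower in the knockout (1.01 to 1.03). Genes were counted as apart when RPKM + 1 in a library was at least 25% above that in the other. By that count 0 members were lower in the knockout, where 6.98% of expressed genes were, and 2 were higher, where 6.95% of expressed genes were. Among genes with at least 5 RPKM in a library, which all 37 members passed, 6.25% were lower by that count, 4.83% were higher and 54.8% had a ratio below 0. Within 1.1-fold in reads per library read lay 20 of the 37 members, beside 45.9% of expressed genes.

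**Figure D4:**
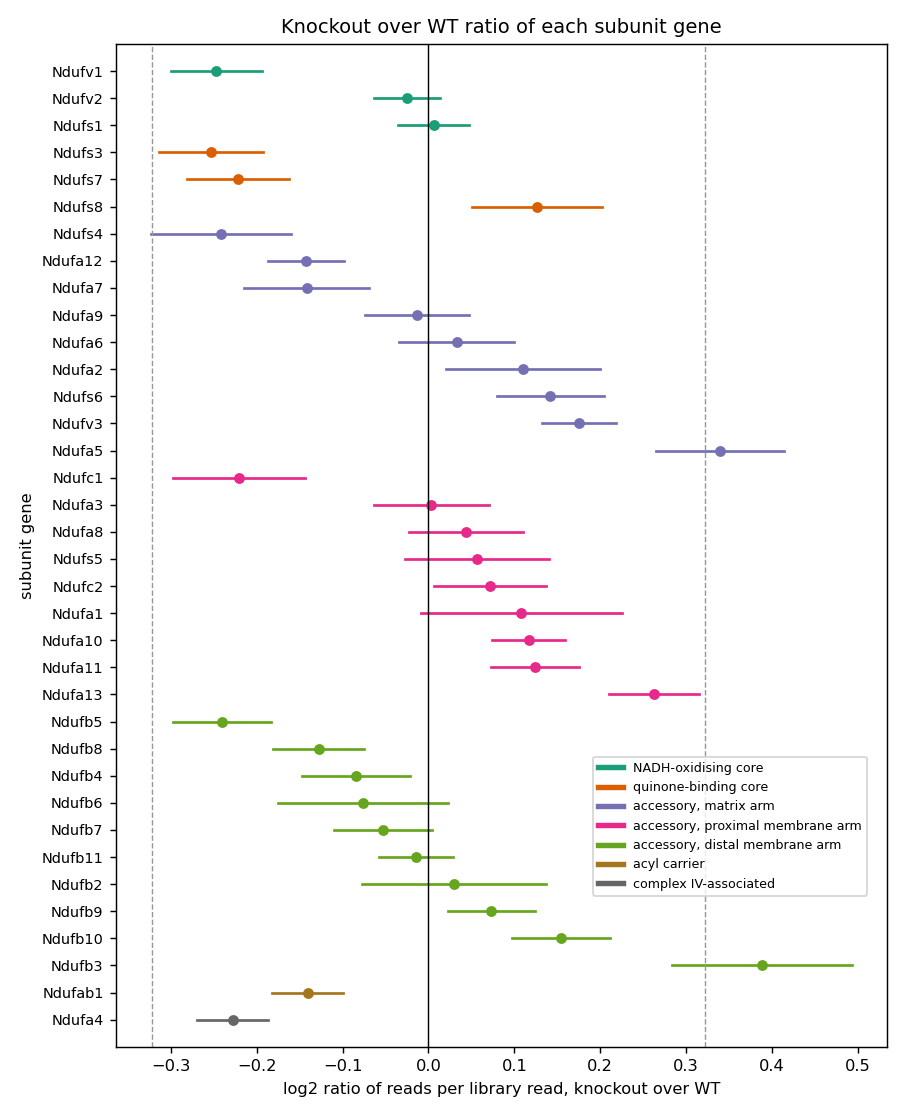
Log2 ratio of reads per library read, knockout over WT (horizontal), of 36 of the 37 subunit genes (vertical, coloured by place in the complex), with exact 95% counting intervals as bars and dashed lines where a library is 25% above the other. Core subunits lie mostly left of 0, proximal membrane-arm subunits mostly right of it, and Ndufb3 and Ndufa5 lie beyond the right dashed line.

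The 7 nuclear-encoded core subunits, which bind the flavin and all iron-sulfur clusters, were lower more often than not. Of these, 5 had a log2 ratio below 0, beside 51.8% of expressed genes, and the median was -0.18. The summed reads of the 7 were 1.08-fold lower in the knockout (1.07 to 1.09). The accessory subunits, 29 without Ndufa4, went the other way by a small margin: 12 were below 0 and 17 above, with a median of 0.03. The difference between core and accessory genes was not tested.

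Among the NADH-oxidising core, Ndufv1, which binds NADH and the flavin, had 5277 reads (81.7 RPKM) in the knockout and 6380 reads (96.97 RPKM) in WT, 1.19-fold lower (1.14 to 1.23). Its partner Ndufv2, an iron-sulfur protein, had 10629 reads (177 RPKM) in the knockout and 11017 reads (181 RPKM) in WT, 1.02-fold lower with an interval of 0.991 to 1.05. Ndufs1, the largest subunit and carrier of several iron-sulfur clusters, had 9310 reads (82.0 RPKM) in the knockout and 9443 reads (81.7 RPKM) in WT, with an interval of the ratio of 0.976 to 1.03. Of these 3, then, only the interval of Ndufv1 excluded 1.

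The quinone-binding core held the largest difference to the lower side. Ndufs3 had 4042 reads (99.4 RPKM) in the knockout and 4907 reads (118 RPKM) in WT, 1.19-fold lower (1.14 to 1.24), and where its reads lie relative to the stretches shared with Gm12251 was not tested. Ndufs7, which carries the last iron-sulfur cluster before ubiquinone, had 4180 reads (109 RPKM) in the knockout and 4966 reads (128 RPKM) in WT, 1.17-fold lower (1.12 to 1.22). Ndufs8, a ferredoxin-like iron-sulfur subunit, stood against these at 2926 reads (78.1 RPKM) in the knockout and 2731 reads (71.6 RPKM) in WT, 1.09-fold higher (1.04 to 1.15).

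Accessory subunits of the matrix arm spread to both sides, with a median log2 ratio of 0.03. Of the 9, 4 were below 0, beside 51.8% of expressed genes. Ndufa5, bound to the quinone-binding core, had 3278 reads (96.3 RPKM) in the knockout and 2639 reads (76.1 RPKM) in WT, 1.27-fold higher (1.20 to 1.33), and only 1.18% of its words recur in another gene. Ndufv3, a subunit of the NADH-oxidising tip, had 9194 reads (150.1 RPKM) in the knockout and 8293 reads (133 RPKM) in WT, 1.13-fold higher (1.096 to 1.16). Ndufs4, whose loss in mice gives a model of Leigh syndrome, had 2249 reads (37.7 RPKM) in the knockout and 2708 reads (44.6 RPKM) in WT, 1.18-fold lower (1.12 to 1.251). Ndufa12, at 7833 reads (181 RPKM) in the knockout and 8808 reads (200.3 RPKM) in WT, was 1.104-fold lower (1.07 to 1.14), with 30.0% of its words in Gm15920 and other copies. The zinc-binding Ndufs6 was 1.103-fold higher, Ndufa7 1.103-fold lower, Ndufa2 1.08-fold higher, Ndufa6 1.02-fold higher and Ndufa9 1.01-fold lower.

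Summed reads of accessory subunits of the proximal membrane arm, next to the matrix arm, were 1.06-fold higher in the knockout (1.05 to 1.08). The median log2 ratio was 0.07. Of these subunits 8 of 9 were above 0, while 51.8% of expressed genes were below 0. Ndufa13, also known as GRIM-19, led them with 6531 reads (135 RPKM) in the knockout and 5546 reads (113 RPKM) in WT, 1.20-fold higher (1.16 to 1.24). It shares 28.3% of its words with Tssk6, a gene on the opposite strand at the same place that had 64 reads in the knockout and 35 in WT, and the use of strand in counting is not given. Ndufa11 and Ndufa10 were 1.09-fold and 1.08-fold higher, Ndufc2 was 1.05-fold higher, and the intervals of Ndufa1, Ndufs5, Ndufa8 and Ndufa3 held 1. Ndufs5 had 2350 reads (88.9 RPKM) in the knockout and 2302 reads (85.5 RPKM) in WT, 1.04-fold higher (0.981 to 1.102). Ndufc1 was the exception at 52.0 RPKM in the knockout and 60.6 RPKM in WT, 1.17-fold lower (1.11 to 1.23).

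The distal membrane arm held the member with the largest ratio. Ndufb3 had 1688 reads (56.9 RPKM) in the knockout and 1314 reads (43.5 RPKM) in WT, 1.31-fold higher (1.22 to 1.41), with 13.5% of its words in a processed pseudogene on chromosome 12. Ndufb10, a disulfide-bonded subunit of the intermembrane-space side, had 5214 reads (161 RPKM) in the knockout and 4774 reads (145 RPKM) in WT, 1.11-fold higher (1.07 to 1.16). Ndufb5 lay on the other side with 4520 reads (108 RPKM) in the knockout and 5439 reads (127 RPKM) in WT, 1.18-fold lower (1.14 to 1.23). It shares 17.7% of its words with Mrpl47, a gene on the opposite strand at the same place. Mrpl47 had 847 reads in the knockout and 965 in WT. In all, 6 of the 10 genes of this arm were below 0, beside 51.8% of expressed genes, with a median of -0.03. Ndufb8, often used as a protein marker of assembled complex I, was 1.09-fold lower (1.05 to 1.13). Members of this arm with shared sequence are given here for their copies or overlaps. Ndufb4 had 3946 reads (104.5 RPKM) in the knockout and 4261 reads (111 RPKM) in WT, 1.06-fold lower (1.01 to 1.11). Ndufb6 had 1604 reads (62.6 RPKM) in the knockout and 1723 reads (66.0035 RPKM) in WT, 1.05-fold lower (0.985 to 1.13). Ndufb9 had 6505 reads in the knockout and 6298 in WT, 1.05-fold higher (1.02 to 1.09), and Ndufb11 had 8555 reads in the knockout and 8805 in WT, 1.01-fold lower (0.981 to 1.04). Of the others, Ndufb2 had 1409 reads in the knockout and 1406 in WT, 1.02-fold higher with an interval of 0.947 to 1.0999, and Ndufb7 was 1.04-fold lower.

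Ndufab1, the mitochondrial acyl carrier protein that also serves fatty acid and lipoic acid synthesis, had 8781 reads (64.9 RPKM) in the knockout and 9861 reads (71.6 RPKM) in WT, 1.102-fold lower (1.07 to 1.13). Ndufa4 had 8482 reads in the knockout and 10120 in WT, 1.17-fold lower (1.14 to 1.21). It is the most abundant member in RPKM but not in reads. Without Ndufa4 the ratio of summed reads, knockout over WT, was 0.988, against 0.981 with it. The X-linked members, Ndufa1 at 75.1 RPKM in the knockout and 69.6 RPKM in WT and Ndufb11 at 242 and 245 RPKM, had 9778 reads together in the knockout and 9961 in WT, with an interval of the ratio of 0.972 to 1.03. Members at 20% or more shared words had a median log2 ratio of -0.05 (8 genes) and the others one of 0.01 (29 genes). Both directions held genes with no shared word, such as Ndufv1 and Ndufs7 on the lower side and Ndufv3 and Ndufb10 on the higher side.

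The deposited coverage, the covered share of each gene's listed length, shows whether reads reached along a transcript but does not separate splice forms. It was within 5 points between the libraries for 32 of the 37 members. In 4 it was at least 5 points lower in the knockout, beside 9.01% of expressed genes: Ndufc1 (82.79% in the knockout and 98.08% in WT), Ndufb4 (76.73% and 90.83%), Ndufv2 (87.14% and 94.94%) and Ndufs3 (88.53% and 94.26%). In 1, Ndufs6, it was higher (79.39% in the knockout and 72.66% in WT), beside 8.51% of expressed genes. Of these 5 genes, Ndufv2 alone has no word shared with another gene, beside 10 of all 37 members. Whether coverage goes with shared words was not tested.

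Assembly factors build the complex and are not part of it. All 16 listed were expressed, far below the subunits, with a median of 11.1 RPKM in the knockout and 12.8 RPKM in WT. Of these, 11 had a log2 ratio below 0 (51.8% of expressed genes), and the median was -0.13. On RPKM + 1, 0 were apart by 25% in either direction, beside 6.98% of expressed genes lower and 6.95% higher. Adding 1 to RPKM shrinks the ratios of such low genes. Tmem70, a membrane protein needed for ATP synthase and complex I assembly, had 16.0 RPKM in the knockout and 19.7 RPKM in WT, 1.23-fold lower (1.14 to 1.33). Ndufaf2, the most abundant of them and a chaperone that stands in for Ndufa12 during assembly, had 25.1 RPKM in the knockout and 30.97 RPKM in WT, 1.24-fold lower (1.11 to 1.37). Tmem126b, of the complex that assembles the proximal membrane arm, had 6.24 RPKM in the knockout and 7.83 RPKM in WT, 1.26-fold lower (1.14 to 1.39), while Acad9 of that same complex had 10.9 RPKM in the knockout and 9.41 RPKM in WT, 1.16-fold higher (1.096 to 1.23).

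The mitochondrially encoded subunits were mostly higher in the knockout. Of 6 genes, mt-Nd1, mt-Nd2, mt-Nd4, mt-Nd5 and mt-Nd6 were above 0 and mt-Nd3 below, where 51.8% of expressed genes were below. Their summed reads were 1.14-fold higher (1.138 to 1.143). All 12 mitochondrially encoded genes listed took 12.1% of reads in the knockout and 11.01% in WT, and scaling to the remaining reads moved the median of the nuclear members to 0.02. The 41 nuclear genes of complexes II to V had a median log2 ratio of -0.09, with 30 below 0, beside 51.8% of expressed genes. By the 25% count 5 of them were lower and 0 higher, beside 6.98% and 6.95% of expressed genes. The range of these 41 genes, -0.50 to 0.19, reached lower than that of complex I, -0.25 to 0.38. Whether the groups differ was not tested. Ndufa4l2, a paralog of Ndufa4 that the naming rule leaves out, had 379 reads (10.2 RPKM) in the knockout and 201 reads (5.29 RPKM) in WT, 1.92-fold higher (1.61 to 2.29).

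**Figure D5:**
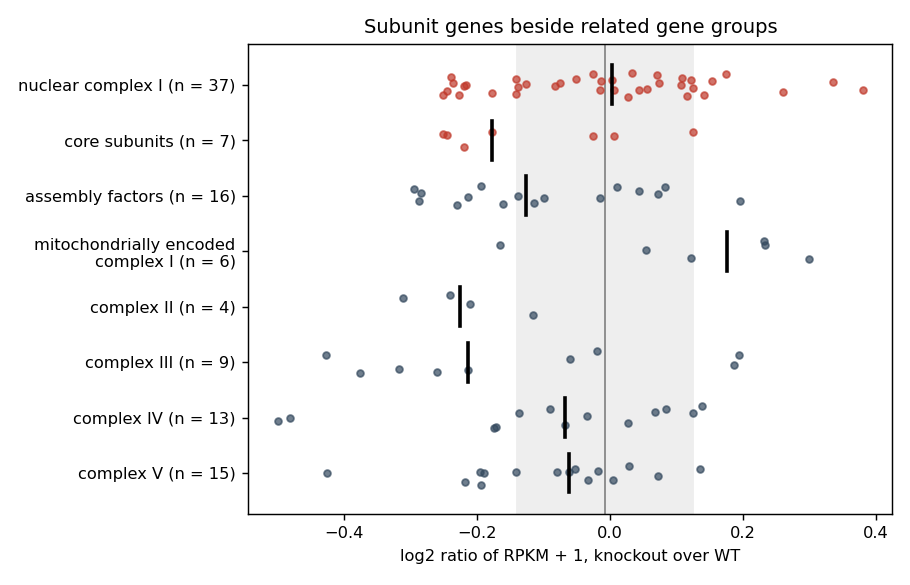
Log2 ratio of RPKM + 1, knockout over WT (horizontal), of single genes (points) and group medians (black bars) for the 37 nuclear complex I genes, their 7 core members and related groups; the grey band spans the quartiles and the grey line the median of the 12329 expressed genes. The complex I median lies at 0.00, the core at -0.18, assembly factors at -0.13 and mitochondrially encoded complex I genes at 0.18.

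Promoters were compared for letters of motifs tied to respiratory genes. RefSeq windows (GRCm38.p6, 250 bases before to 50 after a start) were found for 33 of 37 members, 35 windows in all. Both strands were searched, and matches of different motifs were counted independently. The NRF1 consensus, whose matched letters are the capitals in the Ndufa5 window, was found in 22.9% of member windows and in 4.60% of all 32851 windows. The windows of Ndufa5 overlap at the same match, so the member share counts that match again. By gene, 7 of the 33 members with a window had an NRF1 match. The YY1 motif, whose matched letters are the capitals in the Ndufs7 window, was in 11.4% of member windows and 0.852% of all, the ERR motif core (AAGGTCA) in 8.57% and 4.72%, and an ETS motif (CCGGAAGT) in 2.86% and 3.89%. A match is a description of letters, not a binding site. Shown are a gene that was higher, Ndufa5, with an NRF1 match, and genes that were lower, Ndufs3 with an ETS match and Ndufs7 with a YY1 match, with the match in capitals and each read 5′ to 3′ on the gene's strand.
Ndufa5 promoter, chr6:24527641-24527940, minus strand: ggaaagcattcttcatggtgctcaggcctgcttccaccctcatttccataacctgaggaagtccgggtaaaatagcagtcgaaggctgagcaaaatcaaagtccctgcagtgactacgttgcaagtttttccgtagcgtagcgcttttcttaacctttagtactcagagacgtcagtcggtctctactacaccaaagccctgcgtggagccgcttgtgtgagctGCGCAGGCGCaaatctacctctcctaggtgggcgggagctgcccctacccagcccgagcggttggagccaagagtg
Ndufs3 promoter, chr2:90904672-90904971, minus strand: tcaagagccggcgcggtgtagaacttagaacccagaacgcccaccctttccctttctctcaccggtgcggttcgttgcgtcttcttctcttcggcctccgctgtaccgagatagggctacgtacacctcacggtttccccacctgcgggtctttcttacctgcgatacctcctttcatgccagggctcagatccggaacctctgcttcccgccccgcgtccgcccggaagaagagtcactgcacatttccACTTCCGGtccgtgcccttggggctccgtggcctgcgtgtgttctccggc
Ndufs7 promoter, chr10:80249199-80249498, plus strand: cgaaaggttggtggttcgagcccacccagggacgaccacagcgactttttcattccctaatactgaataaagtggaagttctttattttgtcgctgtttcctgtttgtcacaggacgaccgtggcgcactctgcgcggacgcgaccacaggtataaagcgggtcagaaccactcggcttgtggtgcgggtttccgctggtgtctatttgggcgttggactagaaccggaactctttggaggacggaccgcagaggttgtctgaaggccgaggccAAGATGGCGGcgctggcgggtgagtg
Members with an NRF1 match were Ndufa5, Ndufa6, Ndufa8, Ndufa11, Ndufb4, Ndufs5 and Ndufs6, and 6 of these 7 had a log2 ratio above 0 (-0.08 to 0.34), beside 10 of the other 26 with a window (-0.25 to 0.38). Of the 4 with a YY1 match (Ndufa9, Ndufs4, Ndufs6 and Ndufs7), 1 was above 0. These splits were made after the ratios were known and were not tested. Among the genes of these factors, Nrf1 had 8.30 RPKM in the knockout and 9.77 RPKM in WT, 1.18-fold lower (1.09 to 1.27), Yy1 was 1.03-fold lower (0.970 to 1.08), Esrra, which encodes the estrogen-related receptor alpha, was 1.102-fold higher (1.04 to 1.17), Esrrg, which encodes a related receptor, was 1.01-fold higher (0.952 to 1.06), Gabpa, which encodes an ETS factor, was 1.05-fold higher (1.002 to 1.095), and the coactivator gene Ppargc1a was 1.07-fold lower (1.02 to 1.12). Of the 9 regulator genes listed, 6 had a log2 ratio below 0, beside 51.8% of expressed genes.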

How the data were processed

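The series holds 1 Srsf10 knockout and 1 WT library, grouped by the genotype in their labels. Bowtie 0.12.2 and mm9 are named in the submitters' processing notes, and the sources used here give no annotation release, filter or strand setting. The deposited counts are uniquely mapped reads per Ensembl gene, per the file headers, with 0 reads assumed for a gene that only the other library lists. The authors also deposited RPKM on a listed gene length, which counts, lengths and totals returned within a relative difference of 2.2e-14. The deposited coverage score is the covered share of that length in percent (above 100 for 1 gene of the knockout table).

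Ensembl identifiers were given symbols through a gene-name table (17196 of 17646 matched). Ratios are log2 of (RPKM + 1), which understates low genes, for 12329 genes with at least 1 RPKM in 1 library. Fold values beside an interval use reads scaled by library total, with no pseudocount. As reads carry no molecular identifiers, they are not independent molecules. No test was run, since each genotype has a single library, and a 25% difference in RPKM + 1 served only to count genes. Full values were given for core subunits, the 5 members with the largest ratio in each direction, the 3 most abundant, the lowest, Ndufa4 and Ndufab1. They were also given for members with 20% or more shared words. Members, lists and rules were chosen with earlier results of these data known. Ndufb1 and mt-Nd4l were not analysed here, and the values of 1 member, which stays in the counts and sums, are not reported here. Shared words and lengths came from GENCODE M21 transcripts, using the transcript of the listed length where there was one (24 of 37 members) and otherwise that of the nearest length. Coding sequences were aligned with Biopython 1.88. The interval script was tested on simulated counts. Other tools were Python 3.11.15, scipy 1.17.1 and edgeR 4.0.16 (TMM factors only). Alternatives were other pseudocounts, filters, scalings and gene lengths, centring by listed length, and leaving out Ndufa4 or members with 20% or more shared words.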

Additional observations from a re-analysis of the deposited data

How the results depend on the processing

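With 1 library per group every value rests on those libraries, and no replicate could be left out. No paired analysis was possible because each group has 1 sample and no test was run. The median log2 ratio of the 37 members stayed between 0.003 and 0.025, and the number below 0 was 16 to 18 of 37 under the other pseudocounts, filters, scalings and length centring. By the 25% count on RPKM + 1, 0 members were lower in the knockout under the alternatives run. The number higher was 2, except with a pseudocount of 5, where it was 1 (Ndufb3). The ratio of summed reads, 0.981, became 0.988 with scaling by the median ratio and 0.989 with TMM factors. It was 0.994 with scaling to reads outside the mitochondrially encoded genes and 0.988 without Ndufa4, in each case still below 1. Each of these values lay above the counting interval of the main ratio, 0.9751 to 0.9876. No interval was made for them, so whether theirs would hold 1 is not given. Ndufa9 and Ndufb11, at log2 ratios of -0.01, changed sign under scaling to reads outside the mitochondrially encoded genes and under length centring. The core median stayed between -0.18 and -0.14 with 5 of 7 genes below 0. Levels on the shorter transcript length were chosen after seeing the data. Leaving out members by copies in the genome sequence was not run, since transcripts alone were used. Median counting intervals reached 0.06 (log2) to each side of a member's ratio.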
